A study of Vigna radiata with 9 samples.

Results

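The genes described here are those of sulfur assimilation and sulfate transport in mung bean (Vigna radiata) leaves. They are 48 of the 26966 genes counted: 32 were taken because the annotation deposited with the counts places them in the sulfur metabolism pathway, and 16 because their description names a sulfate transporter. Descriptions naming a protein induced by sulfur deficiency were to be left out, and 0 genes were removed on that ground. Of the 48 genes, 45 had enough counts to be tested, which includes 14 of the 16 transporters. The 3 others were a probable sulfate transporter 3.3 (LOC106766015), with a single count in the whole experiment, in CK 2, a high affinity sulfate transporter 2 (LOC106775144), with 46 counts over the 9 libraries, and a serine acetyltransferase 4 (LOC106768315), with 1 count each in LT+S 2 and LT+S 3.

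Plants take up sulfur as sulfate, and sulfate transporters of the SULTR family carry it across the plasma membrane, between tissues and out of the vacuole. ATP sulfurylase activates sulfate to adenosine 5'-phosphosulfate (APS), APS reductase and sulfite reductase reduce it to sulfide in plastids, and cysteine synthase, also called O-acetylserine(thiol)lyase, joins the sulfide to O-acetylserine, which serine acetyltransferase supplies. A side branch begins with APS kinase, which makes the sulfate donor PAPS, and the by-product PAP is removed by phosphatases of the SAL1 and HAL2 type.

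Leaf RNA was sequenced in 3 groups of 3 libraries, 1 library for each pot, from wild type plants of the variety 'Lvfeng No.2'. LT+S plants were sprayed at the onset of flowering with uniconazole, a growth retardant that blocks gibberellin synthesis, at 50 mg/L and then chilled to 15 °C. LT plants received a water spray and the same 15 °C, and CK plants received a water spray and stayed in the natural environment. Chilling started 36 h after spraying and took place in a phytotron for 4 days, so low temperature and place of growth cannot be told apart, and a single variety limits what the groups stand for. The compound is numbered S3305, S3306 and S3307 in the labels of LT+S 1, LT+S 2 and LT+S 3, which were taken as 3 replicates of 1 treatment. Levels are given as CPM, counts divided by library size after TMM scaling, a step that makes the bulk of genes comparable between libraries. A gene was called higher or lower at an adjusted p below 0.05 in edgeR, with p-values adjusted over all 19304 genes tested. Both cold groups were set against the same 3 CK libraries, so their fold changes against CK are not independent of each other.

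Cold leaves had less RNA from the main reduction route. ATP sulfurylase, APS reductase 1 and sulfite reductase were all lower than in CK in both cold groups, the largest of these differences being 6.91-fold in LT+S and 7.68-fold in LT for APS reductase 1. The side branch was split, with 4 of 9 genes higher in each cold group, and 2 lower in LT+S and 3 in LT. Serine acetyltransferases were called in both directions, a mitochondrial one being higher. Cystathionine gamma-synthase 1 was higher, by calls that were lost with some single libraries left out. In LT+S against CK, 10 of the 45 members were higher and 17 lower, beside 19.7% and 21.9% of all genes tested. In LT against CK, 12 were higher and 19 lower, beside 22.8% and 23.7% of all genes tested. The members lower made up 37.8% of the 45 in LT+S and 42.2% in LT, above the share over all genes, whereas the members higher, 22.2% in LT+S and 26.7% in LT, lay near it.

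At a change of at least 2-fold, 6 members were higher and 11 lower in LT+S, where 9.68% and 11% of all genes were. In LT, 5 were higher and 12 lower, where 10.9% and 12.8% of all genes were. The median log2 fold change of the members was -0.21 in LT+S and -0.24 in LT against CK, with 0.01 over all genes in each comparison. Libraries did not overlap with those of CK for 30 of 45 members in LT+S (66.7%, beside 55.7% of all genes) and for 33 in LT (73.3%, beside 54.8%). The scaling bears on the split between higher and lower. With library totals alone in place of TMM, the median over all genes moved to 0.50 in LT+S and 0.52 in LT. The members called became 15 higher and 9 lower in LT+S and 17 higher and 11 lower in LT. Shares over all genes were not taken for library totals, so these counts cannot be set against all genes. Leaving out single libraries also lowered the counts of higher members. They dropped to 6 in LT+S without CK 2 or without LT+S 1, and to 7 in LT without CK 2. These fits hold fewer libraries, and shares over all genes were not taken for them. Lost calls named below are mainly those with library totals or a library left out. Losses in the other fits are listed at the end.

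**Figure D1:**
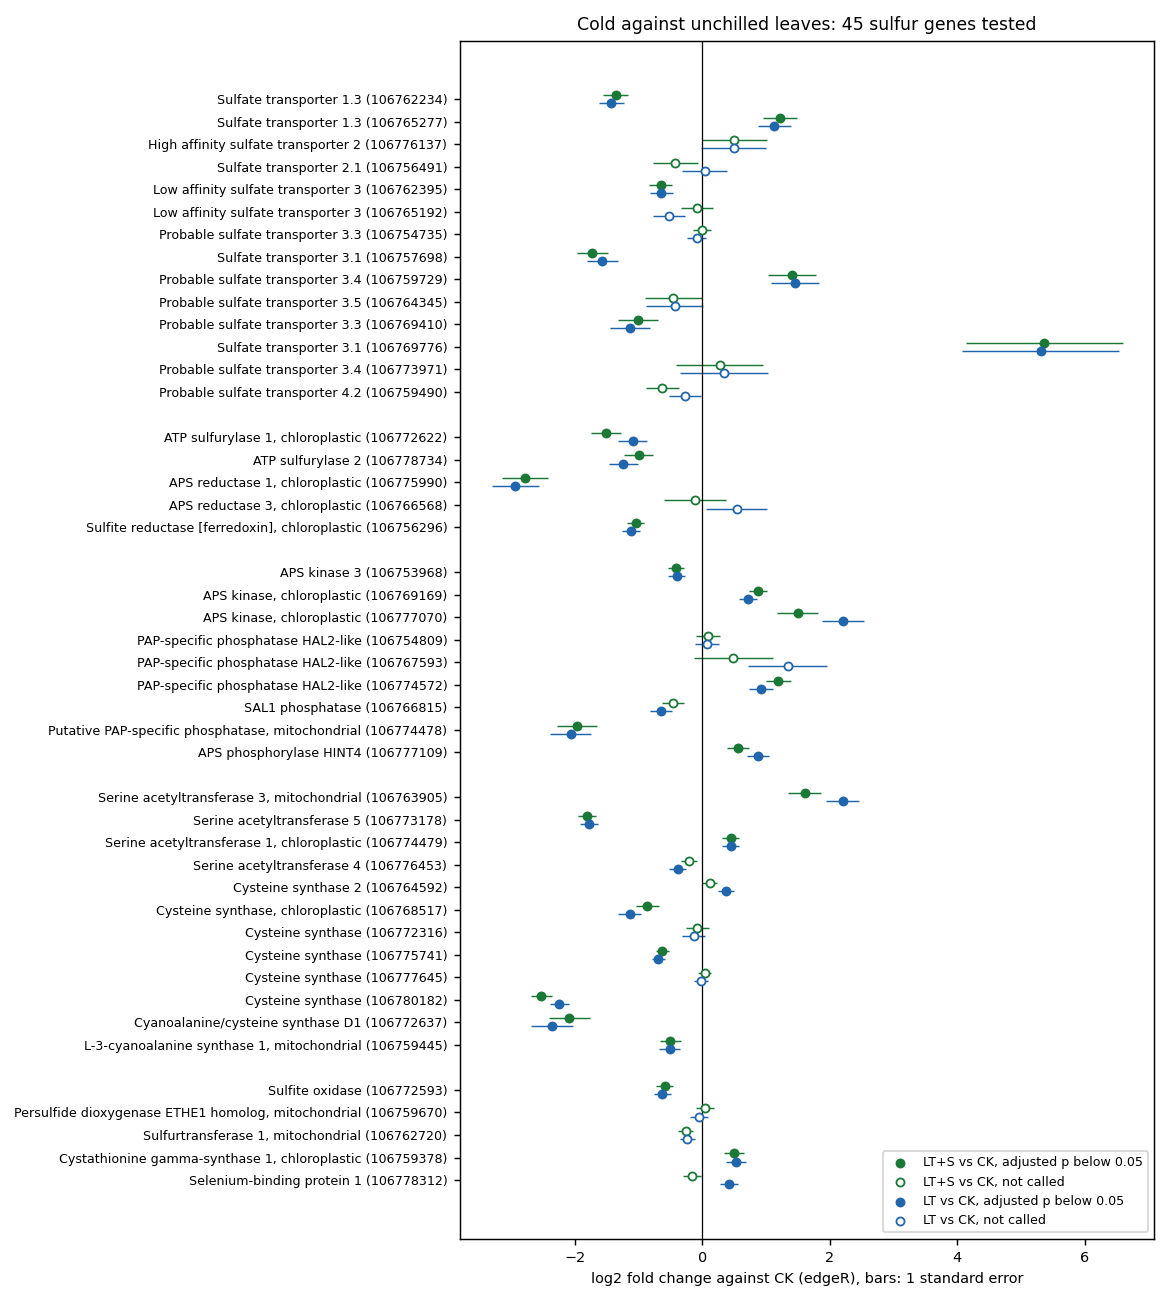
Log2 fold change against CK (horizontal axis) of the 45 members tested, with LT+S in green and LT in blue, grouped by role. Bars are 1 standard error, filled points passed the adjusted p threshold in edgeR, and the members run from the -2.94 of APS reductase 1 in LT to a transporter 3.1 with 5 counts in all CK libraries.

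Among the 14 transporters tested, 3 were higher (21.4%) and 4 lower (28.6%) in each cold group, beside 19.7% higher and 21.9% lower of all genes in LT+S and 22.8% and 23.7% in LT, and 7 passed the threshold in neither direction. The transporter with the most counts was a sulfate transporter 3.1 (LOC106757698, chromosome 3, 1470482 to 1477482); group 3 members are known in Arabidopsis from chloroplast sulfate uptake. It had 338, 284 and 367 CPM in LT+S 1 to 3 and 313, 522 and 267 CPM in LT 1 to 3, against 1123, 1096 and 1055 CPM in CK 1 to 3. All 6 cold libraries lay far below the 3 CK libraries, which were close to each other, and LT 2 was the highest of the cold ones. Its log2 fold change against CK was -1.73 ± 0.25 in LT+S and -1.57 ± 0.24 in LT (SE; adjusted p = 7.9e-04 and 9.9e-04).

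Both genes described as sulfate transporter 1.3 were called, in opposite directions. Group 1 transporters are high-affinity carriers, and the 1.3 member of Arabidopsis is known from phloem. LOC106762234 (chromosome 5, 15292841 to 15299713) had 22.2, 20.7 and 30.1 CPM in LT+S and 18.2, 21.5 and 30.0 CPM in LT, against 61.3, 61.8 and 65.0 CPM in CK. It was lower in all 6 cold libraries, with log2 fold changes of -1.36 ± 0.20 in LT+S and -1.43 ± 0.20 in LT (SE; adjusted p = 9.1e-04 and 5.8e-04). LOC106765277 (chromosome 6, 11686125 to 11693592) had 43.9, 37.1 and 25.7 CPM in LT+S and 23.2, 45.1 and 31.8 CPM in LT, against 13.9, 16.4 and 15.6 CPM in CK. Here every cold library was above every CK library, with log2 fold changes of 1.22 ± 0.26 in LT+S and 1.13 ± 0.26 in LT (SE; adjusted p = 0.0057 and 0.0072). The share of LOC106762234 in the counts of both genes was 33.6 to 53.9% in LT+S and 32.3 to 48.5% in LT, against 79.1 to 81.5% in CK. Gene length was not accounted for in this share, so its change between groups can be read but not its level.

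Group 3 held members that moved in both directions. A probable transporter 3.3 (LOC106769410) had 39.6, 29.0 and 40.4 CPM in LT+S and 21.2, 53.6 and 25 CPM in LT, against 74.2, 74.6 and 71.1 CPM in CK. No cold library reached the CK libraries, although LT 2 stood well above LT 1 and LT 3. It was lower by the test in LT+S (-1.01 ± 0.31, adjusted p = 0.029) and in LT (-1.14 ± 0.31, adjusted p = 0.016), and with library totals alone it was called in neither (adjusted p = 0.13 and 0.063). The LT+S call was also lost without any single library of CK or LT+S, at log2 fold changes of -1.09 to -0.87 and adjusted p of 0.055 to 0.10. A probable transporter 3.4 (LOC106759729) had 15.9, 11 and 9.29 CPM in LT+S and 6.39, 16 and 15 CPM in LT, against 3.48, 4.05 and 6.15 CPM in CK. The lowest LT library lay just above the highest CK library. The log2 fold change was 1.40 ± 0.38 in LT+S and 1.45 ± 0.38 in LT (adjusted p = 0.017 and 0.013), and without CK 2 neither call was kept (1.32 in LT+S and 1.38 in LT, adjusted p = 0.063 and 0.051). The LT+S call was also lost without CK 1 (1.24, adjusted p = 0.051) and without LT+S 1 (1.16, adjusted p = 0.058).

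A second gene described as transporter 3.1 (LOC106769776) was singled out after its values were seen, since its mean lay under 5 CPM. It had 9.45, 2.78 and 1.09 CPM in LT+S and 2.06, 1.5 and 9.21 CPM in LT, against 0.0581, 0.119 and 0.131 CPM in CK. Both cold groups spread widely, and the CK libraries held 1, 2 and 2 counts. From 313 counts in LT+S and 308 in LT against 5 in CK, the ratio of scaled counts was 43.5 in LT+S (95% interval 18.4 to 135) and 43.2 in LT (18.3 to 134), intervals that cover counting error only. Without LT+S 1 the ratio in LT+S was 19.0 (7.87 to 60), and without LT 3 the ratio in LT was 17.7 (7.27 to 55.9). The gene entered the test only through the cold groups, so its call carries no weight of its own: without it, 2 of 13 transporters were higher in each cold group, and 9 of 44 members were higher in LT+S and 11 in LT. The 3 other group 3 members tested, a 3.3, a 3.4 and a 3.5, did not pass in either group and had mean levels of 1.31 to 11.3 CPM.

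Group 2 and the low affinity class gave 1 call among 3 genes. A sulfate transporter 2.1 (LOC106756491), of a group known in Arabidopsis for vascular transport, had 127, 140 and 229 CPM in LT+S and 178, 350 and 153 CPM in LT, against 171, 219 and 275 CPM in CK. Its groups overlapped and it was not called (-0.42 in LT+S and 0.03 in LT, adjusted p = 0.36 and 0.95). One low affinity transporter 3 (LOC106765192) had 109, 154 and 170 CPM in LT+S and 72.3, 138 and 107 CPM in LT, against 132, 150 and 176 CPM in CK, also without a call, although LT passed without LT 2 (-0.77, adjusted p = 0.034). The other low affinity transporter 3 (LOC106762395) was lower in both groups, by 0.66 in LT+S and 0.64 in LT on the log2 scale (adjusted p = 0.020 and 0.019). With library totals alone it was called in neither (-0.17 and -0.15, adjusted p = 0.44 and 0.49). The LT+S call was also lost without CK 1, CK 2, LT+S 2 or LT+S 3 (-0.66 to -0.51, adjusted p = 0.056 to 0.075), and the LT call without CK 1, CK 2 or LT 1 (-0.63 to -0.50, adjusted p = 0.057 to 0.066).

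The only group 4 gene, a probable transporter 4.2 (LOC106759490), belongs to the vacuolar sulfate exporters known from Arabidopsis. It had 296, 165 and 137 CPM in LT+S and 219, 270 and 275 CPM in LT, against 315, 308 and 301 CPM in CK. Every cold library lay below CK, but LT+S 1 lay close to it, and the log2 fold changes of -0.63 ± 0.26 in LT+S and -0.28 ± 0.26 in LT were not called (adjusted p = 0.079 and 0.41). In DESeq2 the LT+S difference passed, at an adjusted p of 0.049, as it did in edgeR without LT+S 1 (-1.03, adjusted p = 0.0027). The high affinity transporter 2 that could be tested (LOC106776137) was low in every library, at 1.03, 1.26 and 0.586 CPM in LT+S and 0.883, 0.547 and 1.43 CPM in LT, against 0.348, 0.714 and 0.982 CPM in CK. Summed over all 16 transporters, CPM averaged 1021 ± 94.6 in LT+S and 1131 ± 323 in LT, against 2030 ± 21.7 in CK (SD, n = 3). This sum is weighted by 1 gene. LOC106757698 took 31.2 to 34.2% of the transporter counts in LT+S and 27.2 to 34.8% in LT, against 51.4 to 55.9% in CK.

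**Figure D2:**
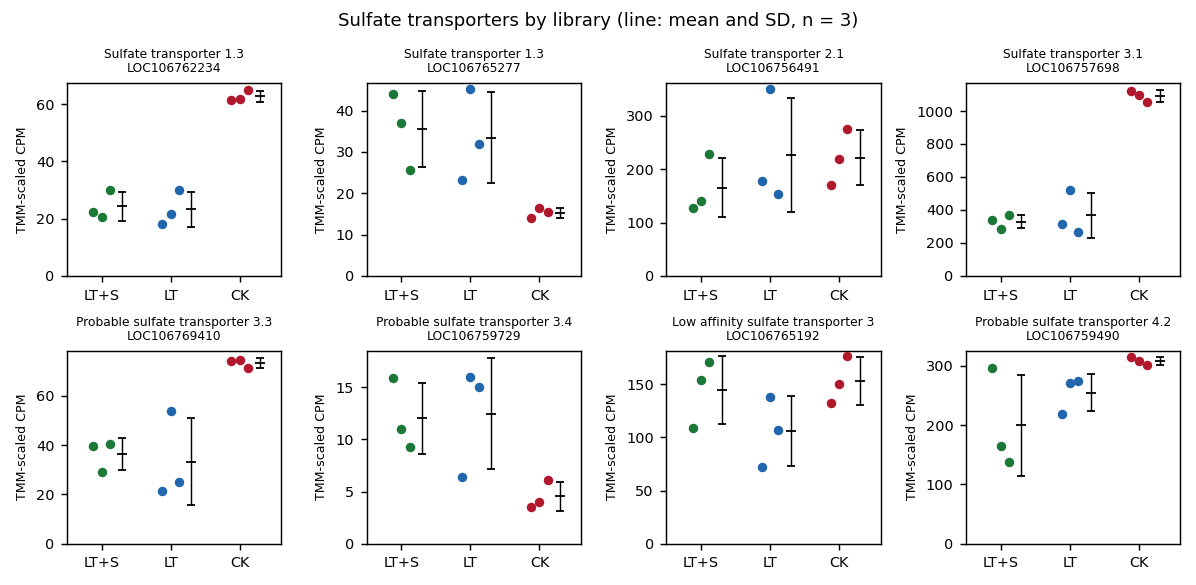
TMM-scaled CPM (vertical axis, from 0) of 8 sulfate transporter genes in each of the 9 libraries, with LT+S in green, LT in blue and CK in red. Points are libraries and the black line beside each group is the mean with its SD (n = 3). LOC106757698 averaged 330 CPM in LT+S and 367 CPM in LT, against 1092 CPM in CK, while LOC106765277 ran the other way.

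Of the 5 genes of primary assimilation, 4 were lower in each cold group (80%, beside 21.9% of all genes in LT+S and 23.7% in LT). All 4 were lower at least 2-fold, and the median log2 fold change was -1.05 in LT+S and -1.12 in LT. APS reductase 1 (LOC106775990, chromosome 10, 15410038 to 15413024) makes the enzyme that commits sulfate to reduction. It had 430, 361 and 437 CPM in LT+S and 185, 579 and 340 CPM in LT, against 2713, 2823 and 2948 CPM in CK. The 3 CK libraries were close together and every cold library lay far below them, with the widest spread in LT. The log2 fold change was -2.79 ± 0.37 in LT+S and -2.94 ± 0.37 in LT (SE; adjusted p = 5.6e-04 and 3.3e-04), and with library totals alone it was -2.30 and -2.46. APS reductase 3 (LOC106766568) held few reads, 1.67 to 4.19 CPM in LT+S and 2.35 to 7.78 CPM in LT, against 2.82 to 3.19 CPM in CK, and was not called. APS reductase 1 took 97.8 to 99.9% of the counts of both genes in every library.

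ATP sulfurylase 1 (LOC106772622, chromosome 8, 41358380 to 41362065), the plastid enzyme that activates sulfate, had 424, 262 and 277 CPM in LT+S and 330, 531 and 422 CPM in LT, against 945, 929 and 869 CPM in CK. No cold library came near CK, and the 2 cold groups overlapped. The log2 fold change was -1.51 ± 0.23 in LT+S and -1.10 ± 0.23 in LT (SE; adjusted p = 0.0012 and 0.0046). ATP sulfurylase 2 (LOC106778734) had 135, 125 and 128 CPM in LT+S and 90.6, 154 and 84.7 CPM in LT, against 219, 257 and 303 CPM in CK. It was lower in all cold libraries, with log2 fold changes of -1.0 in LT+S and -1.24 in LT (adjusted p = 0.0077 and 0.0024), although the LT+S call was lost with library totals alone (adjusted p = 0.051).

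Sulfite reductase (LOC106756296, chromosome 2, 1551727 to 1556094), which takes electrons from ferredoxin to make sulfide, had 136, 131 and 119 CPM in LT+S and 121, 127 and 121 CPM in LT, against 216, 279 and 307 CPM in CK. The cold libraries were tightly grouped and all lay below CK 1, the lowest of CK. The log2 fold change was -1.05 ± 0.14 in LT+S and -1.12 ± 0.14 in LT (SE; adjusted p = 6.1e-04 and 3.4e-04).

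Of the 9 genes of the side branch from APS to PAPS and PAP, 4 were higher in each cold group (44.4%). In LT+S, 2 were lower (22.2%), and in LT 3 (33.3%). Over all genes, 19.7% were higher and 21.9% lower in LT+S, and 22.8% and 23.7% in LT. APS kinase, which phosphorylates APS to PAPS, had 3 genes. LOC106769169 (AKN, chromosome 7, 28743244 to 28747690) had 24.6, 26.6 and 27.9 CPM in LT+S and 23.4, 27.4 and 20.7 CPM in LT, against 12.5, 15.8 and 15.1 CPM in CK. It was higher in every cold library, by 0.87 ± 0.14 in LT+S and 0.72 ± 0.14 in LT on the log2 scale (adjusted p = 0.0014 and 0.0030). LOC106777070 (AKN, chromosome 11, 3835983 to 3839697) had 6.54, 4.76 and 3.14 CPM in LT+S and 8.03, 7.56 and 8.15 CPM in LT, against 2.21, 1.85 and 1.05 CPM in CK. The 3 groups did not overlap, with LT highest and CK lowest, and the log2 fold change against CK was 1.49 ± 0.33 in LT+S and 2.21 ± 0.33 in LT (adjusted p = 0.0065 and 8.1e-04).

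The third kinase gene, APS kinase 3 (LOC106753968), was slightly lower, by 0.42 in LT+S and 0.41 in LT on the log2 scale (adjusted p = 0.029 and 0.030), but with library totals alone its sign turned (0.075 in LT+S and 0.10 in LT, adjusted p = 0.68 and 0.56). The LT+S call was also lost without CK 1, CK 3 or any LT+S library (-0.45 to -0.37, adjusted p = 0.059 to 0.099), and the LT call without CK 1, CK 3, LT 2 or LT 3 (-0.38 to -0.34, adjusted p = 0.064 to 0.090). The balance within the step, which does not depend on the scaling, differed between groups. APS kinase 3 took 28.7 to 30.9% of the counts of the 3 genes in LT+S and 26.9 to 32.9% in LT, against 48.1 to 56.5% in CK, with no overlap between cold and CK libraries.

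The PAP phosphatases were split. A putative mitochondrial PAP phosphatase (LOC106774478, chromosome 10, 19095758 to 19102505) had 16.4, 18.3 and 26.2 CPM in LT+S and 16.8, 24.7 and 15.4 CPM in LT, against 49.4, 78.8 and 111 CPM in CK. All cold libraries were below CK 1, and CK 3 was 2.24 times CK 1. The log2 fold change was -1.97 ± 0.32 in LT+S and -2.07 ± 0.32 in LT (adjusted p = 0.0014 and 9.4e-04). A HAL2-like phosphatase (LOC106774572, chromosome 10, 18933466 to 18937614) had 21.7, 25.2 and 26.2 CPM in LT+S and 18.4, 19.7 and 22.5 CPM in LT, against 8.01, 10.2 and 13.8 CPM in CK. Every cold library was above every CK library, with log2 fold changes of 1.19 ± 0.19 in LT+S and 0.92 ± 0.19 in LT (adjusted p = 0.0015 and 0.0045).

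The SAL1 phosphatase (LOC106766815), known in Arabidopsis as a regulator of PAP signalling, was lower in LT (-0.65, adjusted p = 0.013), while LT+S had a log2 fold change of -0.46 with an adjusted p of 0.056. With library totals alone neither was called (0.034 in LT+S and -0.14 in LT, adjusted p = 0.88 and 0.50), whereas LT+S passed in DESeq2 (adjusted p = 0.044) and without CK 1 (-0.61, adjusted p = 0.015). The difference between LT+S and LT for this gene was 0.19 (95% interval -0.20 to 0.57). The 2 other HAL2-like genes had mean levels of 1.85 to 4.72 CPM and were not called. HINT4 (LOC106777109), annotated as an APS phosphorylase and adenylylsulfatase, had 11.8, 10.7 and 13.5 CPM in LT+S and 14.0, 13.7 and 17.3 CPM in LT, against 9.58, 8.16 and 6.74 CPM in CK. The groups lay in the order LT, LT+S and CK without overlap, and it was higher by 0.56 in LT+S and 0.88 in LT on the log2 scale (adjusted p = 0.030 and 0.0034). The LT+S call was lost without CK 2, CK 3, LT+S 1 or LT+S 3 (0.43 to 0.57, adjusted p = 0.064 to 0.10).

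**Figure D3:**
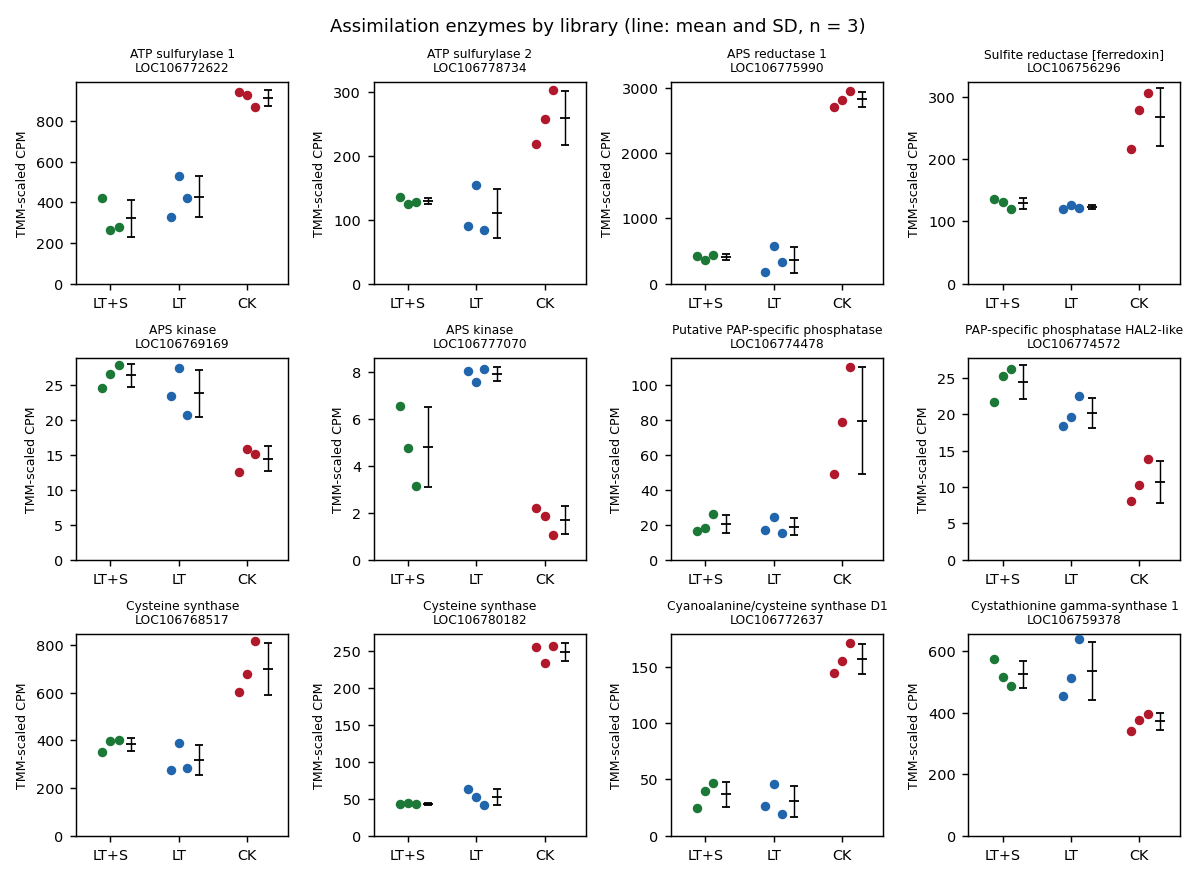
TMM-scaled CPM (vertical axis, from 0) of 12 enzyme genes of sulfate reduction, the side branch and cysteine and methionine synthesis in each of the 9 libraries, with LT+S in green, LT in blue and CK in red. Points are libraries and the black line is the mean with its SD (n = 3). APS reductase 1 averaged 409 CPM in LT+S and 368 CPM in LT, against 2828 CPM in CK, and both AKN kinases and the HAL2-like phosphatase were higher in the cold.

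Cysteine synthesis had 12 genes tested. In LT+S, 2 were higher and 6 lower (16.7% and 50%, beside 19.7% and 21.9% of all genes). In LT, 3 were higher and 7 lower (25% and 58.3%, beside 22.8% and 23.7%). Serine acetyltransferase, which makes O-acetylserine and in plants occurs in cytosol, plastids and mitochondria, had members in both directions. Serine acetyltransferase 3 (LOC106763905, mitochondrial, chromosome 6, 1029076 to 1030442) had 8.55, 8.85 and 10.6 CPM in LT+S and 11.1, 11.5 and 19.8 CPM in LT, against 3.43, 3.15 and 2.62 CPM in CK. The groups did not overlap, with LT highest, and the log2 fold change was 1.60 ± 0.25 in LT+S and 2.20 ± 0.26 in LT (adjusted p = 0.0013 and 2.3e-04). Serine acetyltransferase 5 (LOC106773178, chromosome 9, 4706307 to 4708202) had 20.4, 22.6 and 24.1 CPM in LT+S and 19.2, 27.0 and 22.4 CPM in LT, against 70.0, 81.2 and 85.0 CPM in CK. All cold libraries were far below CK, with log2 fold changes of -1.81 ± 0.15 in LT+S and -1.78 ± 0.15 in LT (adjusted p = 7.3e-05 and 5.9e-05).

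Serine acetyltransferase 1 (LOC106774479, chloroplastic) had 49.4, 45.3 and 41.4 CPM in LT+S and 36.9, 52.9 and 46.4 CPM in LT, against 32.5, 33.6 and 34.0 CPM in CK. It was a little higher in each cold library, by 0.44 on the log2 scale in both groups (adjusted p = 0.029 in LT+S and 0.026 in LT). These calls lay near the threshold. In LT+S the difference was no longer called without CK 1, CK 2, CK 3, LT+S 1 or LT+S 2 (0.38 to 0.45, adjusted p = 0.055 to 0.092). In LT it was no longer called without CK 1, CK 2, CK 3, LT 2 or LT 3 (0.32 to 0.46, adjusted p = 0.050 to 0.076). Serine acetyltransferase 4 (LOC106776453) was lower in LT only by the threshold (-0.21 in LT+S and -0.39 in LT, adjusted p = 0.23 and 0.036), a call lost without CK 2, CK 3, LT 1, LT 3 or LT+S 1 (-0.39 to -0.32, adjusted p = 0.052 to 0.11) and turned in sign with library totals alone (0.29 in LT+S and 0.11 in LT, adjusted p = 0.081 and 0.47). Its difference between LT+S and LT was 0.18 (95% interval -0.11 to 0.48). Serine acetyltransferase 5 took 17.3 to 21.7% of the counts of the step in LT+S and 18.7 to 20.7% in LT, against 48.0 to 49.7% in CK. The share of serine acetyltransferase 1 was 37.3 to 41.9% in LT+S and 36.6 to 40.7% in LT, against 19.9 to 22.3% in CK.

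**Figure D4:**
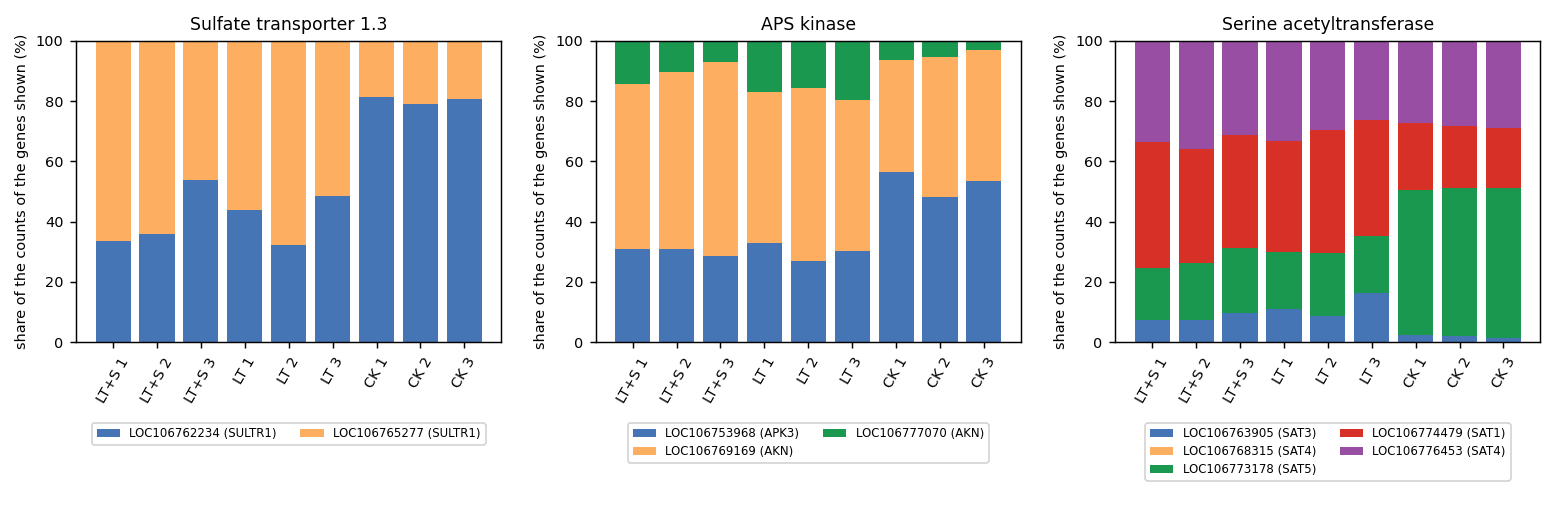
Share of the counts of each gene in a step (percent, vertical axis) for each of the 9 libraries, for both transporters 1.3, the 3 APS kinases and the 5 serine acetyltransferases; 1 of these, LOC106768315, has at most 1 count and cannot be seen. In each panel the cold libraries differ from CK: LOC106762234 holds 33.6 to 53.9% in LT+S and 32.3 to 48.5% in LT, against 79.1 to 81.5% in CK.

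Among the cysteine synthases, the chloroplastic gene (LOC106768517, chromosome 7, 6254520 to 6263216) had the most counts. It had 354, 397 and 404 CPM in LT+S and 278, 389 and 286 CPM in LT, against 604, 679 and 817 CPM in CK. Cold and CK libraries did not overlap, and the log2 fold change was -0.86 ± 0.18 in LT+S and -1.14 ± 0.18 in LT (adjusted p = 0.0048 and 0.0010), the LT+S call being lost with library totals alone (adjusted p = 0.072). A further cysteine synthase (LOC106780182) had 42.5, 44.6 and 42.5 CPM in LT+S and 63.6, 52.6 and 41.3 CPM in LT, against 256, 234 and 256 CPM in CK. This was the gene of the set with the smallest p against CK in both groups, at log2 fold changes of -2.53 ± 0.16 in LT+S and -2.25 ± 0.16 in LT (adjusted p = 3.3e-05 and 3.5e-05).

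Not all of the family was lower. LOC106775741 was lower in both groups, by 0.63 in LT+S and 0.69 in LT on the log2 scale (adjusted p = 0.0015 and 7.7e-04), and was called in neither with library totals alone (-0.14 and -0.19, adjusted p = 0.33 and 0.18). LOC106772316 and LOC106777645, which are also described as cysteine synthase, were not called, with log2 fold changes of -0.14 to 0.03 in the cold groups. Cysteine synthase 2 (LOC106764592) was higher in LT (0.37, adjusted p = 0.033), with 0.11 in LT+S (adjusted p = 0.49). The LT call was lost without CK 1, CK 2, CK 3, LT 2, LT 3 or LT+S 2 (0.31 to 0.38, adjusted p = 0.051 to 0.10), while with library totals alone both groups were called (0.61 in LT+S and 0.88 in LT, adjusted p = 0.0049 and 6.3e-04). Its difference between LT+S and LT was -0.26 (95% interval -0.53 to 0.02).

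Cyanoalanine synthases belong to the same enzyme family and detoxify cyanide with cysteine. The bifunctional cyanoalanine and cysteine synthase D1 (LOC106772637, chromosome 8, 32682293 to 32689575) had 24.6, 39.5 and 46.5 CPM in LT+S and 26.1, 45.8 and 19.7 CPM in LT, against 145, 156 and 171 CPM in CK. Every cold library was far below CK, with log2 fold changes of -2.09 ± 0.32 in LT+S and -2.36 ± 0.33 in LT (adjusted p = 0.0012 and 5.5e-04). The mitochondrial cyanoalanine synthase 1 (LOC106759445) had 190, 215 and 205 CPM in LT+S and 158, 208 and 240 CPM in LT, against 261, 286 and 317 CPM in CK. Its smaller differences, -0.50 in LT+S and -0.51 in LT, were called (adjusted p = 0.034 and 0.029) but not with library totals alone (-0.0077 in LT+S and -0.0062 in LT). They were also lost in LT+S without CK 2, CK 3 or any LT+S library (-0.54 to -0.43, adjusted p = 0.068 to 0.10) and in LT without CK 2, CK 3 or LT 1 (-0.52 to -0.36, adjusted p = 0.074 to 0.086).

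The 5 genes of sulfur oxidation and use gave 1 higher and 1 lower in LT+S (20% each, beside 19.7% and 21.9% of all genes). In LT, 2 were higher and 1 lower (40% and 20%, beside 22.8% and 23.7%), and none changed by 2-fold in either group. Cystathionine gamma-synthase 1 (LOC106759378, chromosome 4, 17649726 to 17654226), the first enzyme of methionine synthesis, had 574, 515 and 488 CPM in LT+S and 454, 515 and 640 CPM in LT, against 342, 376 and 397 CPM in CK. It was higher in all cold libraries, by 0.50 ± 0.16 in LT+S and 0.53 ± 0.16 in LT on the log2 scale (adjusted p = 0.031 and 0.023). The LT+S call was lost without CK 1, CK 2 or any LT+S library (0.43 to 0.55, adjusted p = 0.052 to 0.097), and the LT call without CK 1, CK 2 or LT 3 (0.38 to 0.54, adjusted p = 0.067 to 0.069). Sulfite oxidase (LOC106772593), which returns sulfite to sulfate in peroxisomes, had 43.9, 45.6 and 50.6 CPM in LT+S and 51.8, 48.0 and 36.6 CPM in LT, against 71.8, 71.1 and 68.5 CPM in CK. It was lower in all cold libraries, by 0.59 in LT+S and 0.63 in LT (log2 scale, adjusted p = 0.0072 and 0.0046), and was called in neither with library totals alone (adjusted p = 0.55 and 0.44).

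The mitochondrial persulfide dioxygenase ETHE1 (LOC106759670) had 66.4, 47.8 and 53.8 CPM in LT+S and 49.7, 60.7 and 46.9 CPM in LT, against 55.7, 51.1 and 56.7 CPM in CK, and its groups overlapped. With library totals alone it was higher in both (0.53 in LT+S and 0.44 in LT, adjusted p = 0.0065 and 0.014). The mitochondrial sulfurtransferase 1 (LOC106762720) had 179, 145 and 149 CPM in LT+S and 158, 169 and 152 CPM in LT, against 182, 186 and 197 CPM in CK, with all cold libraries a little below CK and no call (adjusted p = 0.10 in LT+S and 0.12 in LT), although LT+S passed without LT+S 1 (-0.36, adjusted p = 0.045). Selenium-binding protein 1 (LOC106778312), placed in the pathway by the annotation, had 196, 227 and 193 CPM in LT+S and 351, 262 and 306 CPM in LT, against 243, 224 and 222 CPM in CK. LT lay above both other groups, which overlapped, and only LT was called against CK (0.41, adjusted p = 0.034). The call was lost without CK 2, CK 3, LT 1 or LT 3 (0.31 to 0.42, adjusted p = 0.067 to 0.12). It was also lost in a fit of the 6 libraries compared and with the replicate number as a block (adjusted p = 0.065 and 0.069).

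No member was called between the uniconazole-sprayed and the water-sprayed cold plants. In LT+S against LT, edgeR called 0 members higher and 0 lower, where 0.0104% and 0.00518% of all genes were called. At an unadjusted p below 0.05 there were 3 of the 45 members, beside 7.07% of all genes. The median log2 fold change was 0.01 over the members and -0.01 over all genes. DESeq2 called 0 members higher and 1 lower, where it called 0.637% and 0.565% of all genes. Libraries of the 2 groups did not overlap for 5 members, 11.1% of them, beside 14.1% of all genes.

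The 3 members with the smallest p were all lower in LT+S than in LT, in value if not by the threshold of edgeR. For selenium-binding protein 1 (LOC106778312) the log2 fold change was -0.58 (95% interval -0.89 to -0.27, adjusted p = 0.30), and this was the gene that DESeq2 called (adjusted p = 0.0047). For serine acetyltransferase 3 (LOC106763905) it was -0.60 (95% interval -1.13 to -0.06, adjusted p = 0.65), and without LT 3, the library with 19.8 CPM, it was -0.27. For the APS kinase LOC106777070 it was -0.72 (95% interval -1.41 to -0.03, adjusted p = 0.69). In all 3, the LT+S libraries lay below the LT libraries without overlap.

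For the main genes that were lower in the cold, the interval between LT+S and LT included 0. The difference between LT+S and LT was 0.15 for APS reductase 1 (LOC106775990, 95% interval -0.62 to 0.93), -0.41 for ATP sulfurylase 1 (LOC106772622, -0.93 to 0.10), 0.07 for sulfite reductase (LOC106756296, -0.25 to 0.38) and -0.16 for the transporter LOC106757698 (-0.70 to 0.39). The interval was widest for APS reductase 1 and narrowest for sulfite reductase. The interval lay within a 2-fold change in either direction for 35 of the 45 members, with a median width of 0.85 on the log2 scale over all 45.

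**Figure D5:**
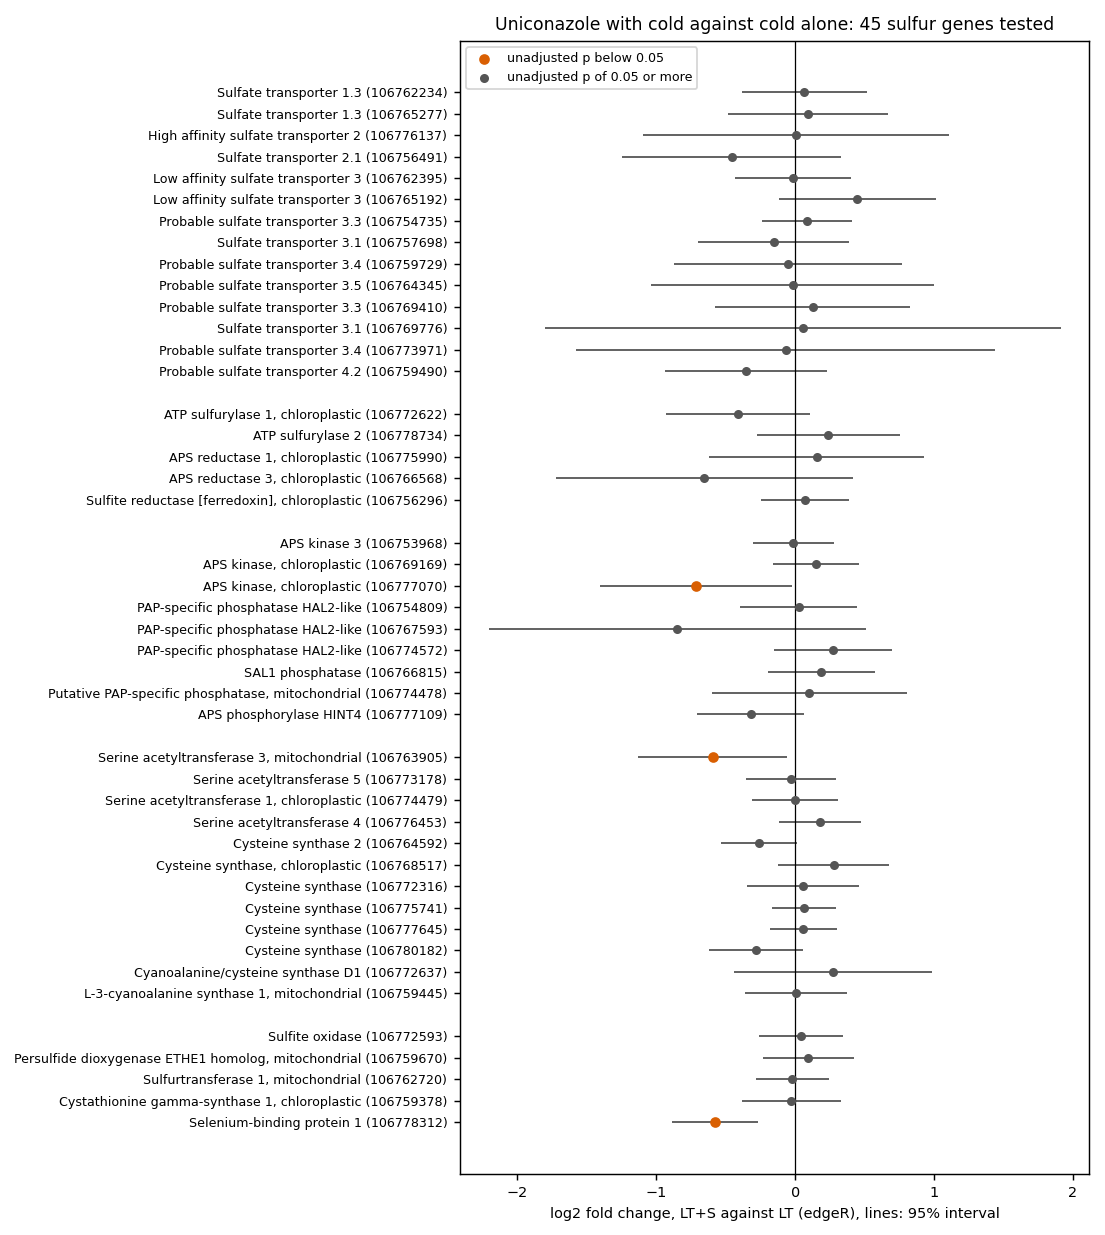
Log2 fold change of LT+S against LT (horizontal axis) for the 45 members tested, with lines for the 95% interval from edgeR. Orange points have an unadjusted p below 0.05 (3 members, at -0.58, -0.60 and -0.72), grey points do not, and no member passed the adjusted threshold.

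All 10 members higher in LT+S against CK were also called higher in LT, and all 17 lower were also called lower. Over all genes, in these comparisons that share CK, 88.3% of the genes higher and 90.4% of those lower in LT+S were called the same way in LT. The 4 called in LT alone were LOC106764592 and LOC106778312 (higher) and LOC106766815 and LOC106776453 (lower), and none of these differed between LT+S and LT by the adjusted p of edgeR.

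Neighbouring pathways were read from lists matched to descriptions, with the genes above left out. Of the 73 thioredoxin and glutaredoxin genes tested, which include electron donors of reduction steps, 9 were higher and 28 lower in LT+S, and 11 higher and 29 lower in LT, with medians on the log2 scale of -0.28 in LT+S and -0.24 in LT, where all genes had 0.01. These were 12.3% higher and 38.4% lower in LT+S and 15.1% and 39.7% in LT, beside 19.7% and 21.9% of all genes in LT+S and 22.8% and 23.7% in LT. The gene of this list with the smallest p went the other way: a thioredoxin-like protein described as HCF164 (LOC106767948) had 40.4, 46.9 and 41.8 CPM in LT+S and 104, 102 and 181 CPM in LT, against 0.290, 0.595 and 0.720 CPM in CK. Its CK libraries held 5, 10 and 11 counts, so the gene entered the test only through the cold groups. It was higher by 6.33 in LT+S and 7.91 in LT on the log2 scale (adjusted p = 2.8e-05 and 1.6e-05). These calls carry no weight of their own. The LT+S libraries lay below the LT libraries without overlap, a difference that edgeR did not call (-1.59, adjusted p = 0.082). Of the 15 genes of the methionine and S-adenosylmethionine cycle, 3 were higher (20%) and 5 lower (33.3%) in LT+S. In LT, 2 were higher (13.3%) and 5 lower (33.3%). Cystathionine beta-lyase (LOC106752579), the step after cystathionine gamma-synthase, had 32.5, 28.9 and 29.7 CPM in LT+S and 33.5, 35.8 and 30.8 CPM in LT, against 58.8, 62.4 and 68.4 CPM in CK. It was lower by 1.06 in LT+S and 0.92 in LT on the log2 scale (adjusted p = 1.6e-04 and 2.0e-04). The synthase before it was called higher, but its calls in LT+S and LT were lost with some single libraries left out.

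None of the 3 glutathione synthesis genes and none of the 2 sulfotransferases tested was called in either group. Of the 20 molybdate and molybdenum cofactor genes, relevant since sulfite oxidase carries that cofactor, 3 were higher (15%) and 4 lower (20%) in LT+S. In LT, 2 were higher (10%) and 6 lower (30%). Over all genes, 19.7% were higher and 21.9% lower in LT+S, and 22.8% and 23.7% in LT. Of the 7 genes of the low sulfur list, 1 was higher (14.3%) and 2 lower (28.6%) in each cold group. The median log2 fold change of this list was near 0 (-0.069 in LT+S and -0.00093 in LT). The higher one was a putative gamma-glutamylcyclotransferase (LOC106779659), at 21.7, 19.7 and 18.5 CPM in LT+S and 17.7, 18 and 17.4 CPM in LT, against 15.6, 12.7 and 12 CPM in CK (0.57 in LT+S and 0.40 in LT, adjusted p = 0.0071 and 0.031). Its LT call was lost without CK 2, CK 3 or any LT library (0.32 to 0.41, adjusted p = 0.055 to 0.11). The 2 lower ones were RESPONSE TO LOW SULFUR 3 (LOC106779085), at 14.1, 19.6 and 23.8 CPM in LT+S and 10.5, 22.5 and 13.1 CPM in LT, against 108, 136 and 179 CPM in CK, and gamma-glutamylcyclotransferase 2-2 (LOC106760885), at 20.7, 20.6 and 20.7 CPM in LT+S and 20.5, 20.9 and 28.2 CPM in LT, against 118, 158 and 223 CPM in CK. In Arabidopsis, the LSU transcripts and that of GGCT2;1 accumulate when sulfur is short. Whether LOC106760885, described as 2-2, is the counterpart of GGCT2;1 was not checked. The log2 fold change of LOC106779085 was -2.88 in LT+S and -3.20 in LT (adjusted p = 2.9e-04 and 1.5e-04), and that of LOC106760885 was -3.01 and -2.84 (adjusted p = 6.5e-05 and 6.1e-05). In LT+S against LT, edgeR called no gene of these 6 lists, where it called 0.0104% of all genes higher and 0.00518% lower. Calls of DESeq2 were not counted for the lists.

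Library totals were alike, from 20750500 to 21472254 counts in LT+S, 20412987 to 21104500 in LT and 19561896 to 21617340 in CK. The 10 most abundant genes took 5.67 to 6.59% of counts in LT+S and 4.43 to 7.17% in LT, against 13.5 to 13.8% in CK, and the TMM factors were 1.10 to 1.14 in LT+S and 1.05 to 1.17 in LT, against 0.781 to 0.804 in CK. The 48 genes together took 0.454 to 0.478% of counts in LT+S and 0.431 to 0.541% in LT, against 0.702 to 0.756% in CK. Leaf mesophyll markers, the antenna proteins and the small subunit of Rubisco, were mostly lower as well: 19 of 20 were lower and 1 higher in each cold group, and their summed level was 15862 to 18277 CPM in LT+S and 6725 to 15356 CPM in LT, against 59975 to 101475 CPM in CK. In bulk leaf RNA, fewer cells of a type and less RNA per cell cannot be told apart.

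Vascular markers (43 of 54 tested) summed to 371 to 435 CPM in LT+S and 233 to 618 CPM in LT, against 87.7 CPM in CK 1, 458 CPM in CK 2 and 801 CPM in CK 3. Root and nodule markers, 4 of 7 of them at 0 in every library, summed to 110 to 155 CPM in LT+S and 105 to 134 CPM in LT, against 419 to 606 CPM in CK, with 1 of the 2 tested higher and 1 lower in each cold group. Flower and pollen markers, 23 of 47 at 0 in every library, summed to 154 to 180 CPM in LT+S and 267 to 320 CPM in LT, against 109 to 145 CPM in CK, and 3 of the 10 tested were higher in LT+S and 4 in LT, with 0 lower. LT 2, the LT library with the highest mesophyll and vascular sums, was the highest of the 3 LT libraries for 12 of the 19 members lower in LT (63.2%, beside 53.6% of all genes lower). Morning clock genes exceeded evening clock genes by 0.84 to 0.94 on the log2 CPM scale in LT+S and 0.74 to 1.13 in LT, against 2.41 to 2.67 in CK, and APS reductase transcripts are known in Arabidopsis to follow the time of day. The part of these marker levels and of clock phase in the differences between groups was not tested.

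Some members lie next to each other in the genome (Vradiata_ver6, RefSeq gene table). The group 1 transporter LOC106762234 and the low affinity transporter LOC106762395 are 18951 bases apart on chromosome 5 with 0 genes between them, and both were lower in the cold. On chromosome 8 the strongly lower LOC106772637 and the cysteine synthase LOC106772316, which was not called, are 2157 bases apart with 0 genes between them. On chromosome 6, serine acetyltransferase 3 (LOC106763905) and cysteine synthase 2 (LOC106764592), 30927 bases and 7 genes apart, were both called higher in LT. The high affinity transporters LOC106776137 and LOC106775144 are 2313 bases apart on chromosome 10, and both had few counts. For 5 members, among them LOC106780182 and LOC106778734, the table gives no chromosome.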

How the data were processed

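Leaf RNA of 9 mung bean libraries was measured, 3 each of LT+S, LT and CK. Per the methods, the authors trimmed reads with Trimmomatic, aligned them to Vradiata_ver6 with hisat2 2.1.0 and made gene counts with htseq-count. The deposited values are raw counts, and the submitters' notes also name CASAVA 1.8 and Cufflinks. How strand and multiply matching reads were handled is not given in the sources used here, so values of close family members are less certain.

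Counts were analysed with edgeR 4.0.16 (limma 3.58.1, R 4.3.3). Genes kept by filterByExpr (19304 of 26966) were scaled by TMM, and the 9 libraries were fitted in 1 model by group with glmQLFit and glmQLFTest, which shares an estimate of the spread. P-values were adjusted by Benjamini-Hochberg over all genes tested. P-values measure the spread between pots. Library totals were 19561896 to 21617340, and no library copied another.

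The members and lists were chosen with earlier results of these data known. Values in each library are given for members called with a log2 fold change of 1 or more and, in the higher group, a mean of 5 CPM or more, for the member with the most CPM in each step, and for the 3 smallest p in LT+S against LT. From the lists outside the set, genes are among the 3 with the smallest p, and steps of the pathway were assigned from the descriptions.

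Alternatives were DESeq2 1.42.0, its size factors in edgeR, no filter, a mean of at least 1 CPM, fits of 6 libraries, the replicate number as a block, and each library left out. Library totals without TMM, counts without a member nearly absent from CK and its ratio with each library left out were added after the data were seen. The fit was also run on simulated data in which 200 genes were changed by known folds. Far more genes were called against CK here, so that run does not test the scaling at such a share. Positions were taken from the RefSeq gene table, in which all 48 identifiers were found. Figures were drawn with matplotlib 3.10.9 (Python 3.11.15, pandas 2.3.3).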

Additional observations from a re-analysis of the deposited data

How the results depend on the processing

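For the 68 called differences recomputed, from members and from 5 genes of other lists, 982 recomputed values kept the call, 103 lost it and 3 changed sign. Those 3 came from library totals: LOC106753968 became 0.075 in LT+S and 0.10 in LT, and LOC106776453 became 0.11 in LT. Library totals in place of TMM left 9 members lower in LT+S and 11 lower in LT against CK, where TMM gave 17 and 19, and DESeq2 called 1 member lower in LT+S against LT. Leaving out each library in turn gave 6 to 10 members higher and 13 to 17 lower in LT+S against CK, 7 to 12 higher and 16 to 19 lower in LT against CK, and 0 in either direction for LT+S against LT. The lowest counts of higher members came without CK 2 (6 in LT+S and 7 in LT) and without LT+S 1 (6 in LT+S). Fits of 6 libraries gave 10 members higher and 17 lower in LT+S, and 9 higher and 16 lower in LT. LT calls lost there were those of LOC106759445, LOC106759378, LOC106778312, LOC106753968, LOC106776453, LOC106764592 and, outside the set, LOC106779659 (adjusted p = 0.051 to 0.070). With the replicate number as a block, 7 members were higher and 16 lower in LT+S, and 9 higher and 20 lower in LT. Shares over all genes were not taken for the block or for the fits of 6 libraries, so these counts cannot be set against all genes. The block lost LOC106769410, LOC106777109, LOC106759378 and LOC106774479 in LT+S, and LOC106774479, LOC106778312 and LOC106764592 in LT (adjusted p = 0.052 to 0.069). The methods describe each pot as an independent replicate, so the replicate numbers were not taken as pairs. Deviations of same-numbered libraries correlated at -0.30 to 0.27 over 9 pairs, and those of different-numbered libraries at -0.27 to 0.36 over 18 pairs. These ranges overlap and cannot settle whether pots were paired. The 3 members not tested had too few counts for a comparison at this depth. The cause of the changes below was not tested.

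Differences that were not called changed sign in some settings. With library totals, log2 fold changes against CK became 0.034 for LOC106766815, 0.29 for LOC106776453, 0.071 for LOC106756491, 0.42 for LOC106765192 and 0.33 for LOC106778312 in LT+S, 0.23 in LT+S and 0.27 in LT for LOC106762720, and 0.23 for LOC106759490 and 0.44 for LOC106759670 in LT. With each library left out, LOC106756491 ran from -0.42 to 0.25 in LT against CK (-0.12 without CK 1), LOC106765192 from -0.22 to 0.086 in LT+S (0.031 without CK 3), and LOC106759670 from -0.10 to 0.14 in LT+S (-0.0062 without CK 2) and from -0.17 to 0.020 in LT. In LT+S against LT, LOC106757698 ran from -0.34 to 0.18 and LOC106775990 from -0.17 to 0.64.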
